A study of Homo sapiens with 2 samples.

Results

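The 10 genes described here encode the core of the mTOR pathway: subunits of the mTOR complexes (MTOR, RPTOR, RICTOR, MLST8, AKT1S1), the tuberous sclerosis complex and its target (TSC1, TSC2, RHEB), and downstream regulators of translation (RPS6KB1, EIF4EBP1). They were chosen as a list by function, and all 10 were found among the 17249 gene symbols of the deposited count table. Poly(A)-selected RNA was sequenced as 2 libraries, 1 per group, both labelled DU145, an epithelial line from human prostate cancer. The group si-P53RRA, called the siRNA library here, received 200 pmol of small interfering RNA against the long noncoding RNA P53RRA, fresh medium after 4 h and a further 48 h of culture, per its labels. The control group has only the name of the cell line as its title, while the header of its counts names a negative-control siRNA. The study asked whether loss of P53RRA alters ferroptosis and AKT signalling, and mTOR lies downstream of AKT. With 1 library per group no difference has a replicate check and no p-value was computed. "Higher" and "lower" state how the siRNA library stood relative to the control library. Pairs of values give the control first, and ranges in parentheses are 95% intervals for counting error only.

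mTOR is a protein kinase that works in a pair of complexes. In mTOR complex 1 it binds RAPTOR, the product of RPTOR, and drives protein synthesis and growth when amino acids and growth factors are present. In mTOR complex 2 it binds RICTOR and phosphorylates AKT and related kinases. The TSC1 and TSC2 proteins together switch off the small GTPase RHEB, the direct activator of complex 1. AKT relieves that brake by phosphorylating TSC2. It also phosphorylates PRAS40, the product of AKT1S1 and a separate restraint on complex 1. Activity of the pathway is set by phosphorylation and by location at the lysosome, neither of which RNA counts measure.

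Promoter sequences are shown for 4 members, TSC1, RPS6KB1 and RICTOR because they had the 3 lowest log2 changes, and RPTOR for contrast because it was higher. RefSeq (GRCh38.p14) held promoter entries for 7 of the 10 genes. The sequences below end 30 bases after the annotated start of the gene. Capitals mark ATGGCG, the core of the motif known for the transcription factor YY1, and in RPS6KB1 also GCGCATG, part of the motif known for NRF1. These motifs were picked with the change of each gene known, from 6 that were searched on both strands. The others were CCGGAAG (ETS factors), CACGTG (the E-box), CCAAT and TATAAA, which 9.94%, 6.94%, 33.6% and 11.2% of all windows held; members with them were TSC1 and TSC2 for CCGGAAG, TSC2 for CACGTG, MTOR, RICTOR and RHEB for CCAAT, and RPTOR for TATAAA.

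TSC1, chr9:132944587-132944736, minus strand: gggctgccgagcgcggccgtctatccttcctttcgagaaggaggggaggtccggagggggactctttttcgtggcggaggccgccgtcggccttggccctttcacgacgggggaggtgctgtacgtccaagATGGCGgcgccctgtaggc
RICTOR, chr5:39074370-39074519, minus strand: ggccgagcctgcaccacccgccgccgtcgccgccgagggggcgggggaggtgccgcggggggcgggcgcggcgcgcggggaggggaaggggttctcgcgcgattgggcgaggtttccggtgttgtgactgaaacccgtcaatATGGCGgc
RPTOR, chr17:80544718-80544867, plus strand: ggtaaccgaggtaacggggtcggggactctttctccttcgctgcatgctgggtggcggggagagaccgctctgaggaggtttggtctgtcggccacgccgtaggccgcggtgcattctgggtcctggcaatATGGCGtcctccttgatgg
RPS6KB1, chr17:59892871-59893150, plus strand: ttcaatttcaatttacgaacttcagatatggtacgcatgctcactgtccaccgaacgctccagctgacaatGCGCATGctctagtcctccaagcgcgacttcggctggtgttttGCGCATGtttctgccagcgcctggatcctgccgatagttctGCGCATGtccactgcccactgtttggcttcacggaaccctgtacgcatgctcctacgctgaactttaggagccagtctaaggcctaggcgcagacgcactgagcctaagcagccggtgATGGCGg

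ATGGCG, on either strand and within 250 bases before to 30 bases after the start, was present for 6 of the 7 members with an entry. The same letters were present in 9.08% of all 35116 RefSeq promoter windows of that length. A match began 12 bases after the start in TSC1 and in RPTOR, which has another 150 bases before the start, outside the stretch shown. It began 23 bases after the start in RICTOR and 24 bases after the start in RPS6KB1. It also occurred in RHEB and downstream of the second annotated start of TSC2, and it was not among the letters of the MTOR window. It was therefore shared by members that were lower and members that were higher. GCGCATG occurred 3 times in the RPS6KB1 window and in no other member's window. Of all windows, 4.29% held it at least once, and 0.211% held it 3 or more times. A match is a description of letters and was not tested as a binding site.

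The control library held 16030207 counts and the siRNA library 11942362 counts. LINC00472, the gene of P53RRA, was counted 105 times against 6 times, which is 11.9-fold lower (5.29 to 33.2). The libraries stood far apart as a whole: of the 13532 genes with at least 1 CPM (counts per 1000000 counts of the library) in either library, 42.9% differed at least 2-fold, and Pearson's r of log2 levels across these genes, which are not independent replicates, was 0.72. Of these genes, 6.58% had a log2 change as low as that of LINC00472 or lower. Markers of cell identity were part of the difference between the libraries. All 8 listed fibroblast markers were lower, with summed levels of 9831 CPM and 216 CPM. Of the 12 mesenchymal markers 10 were at least 2-fold lower, with summed levels of 8446 CPM and 1445 CPM. Of 14 epithelial markers 12 were measured, of which 8 were higher and 2 lower, with summed levels of 447 CPM and 2061 CPM. Collagen COL1A1 had 77422 and 97 counts, and THY1 and the protease gene MMP2 had 10323 and 18038 counts in control and 0 after siRNA. Among the epithelial markers, EPCAM had 0 and 50 counts, and the keratins KRT19 and KRT18 had 8 and 7052 counts and 5870 and 8105 counts. Others of that list went the other way, with 408 and 0 counts for the desmosome gene DSP, 388 and 112 for the tight junction gene OCLN and 94 and 37 for KRT7. E-cadherin, CDH1, was near 0 in both, with 2 and 7 counts. Both libraries carry the label DU145, but these markers do not show that they hold the same cells. With 1 library per group, a difference in cell source or identity and an effect of the siRNA cannot be told apart in any value below. The same holds for the decrease of LINC00472. In bulk RNA, fewer cells of a type and less RNA per cell cannot be told apart.

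Of the 10 mTOR and TSC genes, 8 were within 2-fold between these libraries. At a size of at least 2-fold on the log2(CPM + 0.5) scale, 1 of the 10 genes was higher (MLST8) and 1 was lower (TSC1), while 19.7% of all tested genes were higher by that rule and 23.2% were lower. A share of 1 in 10 in each direction lies below those backgrounds, and with 10 genes nothing particular to the list is read from it. At 1.5-fold, 3 genes were higher (MLST8, RPTOR, AKT1S1) and 3 lower (TSC1, RPS6KB1, RICTOR), beside 29.2% and 32.7% of all tested genes. None reached 3-fold, which 11.7% and 14.5% of tested genes did in the higher and lower direction. The median size of the log2 change, without its sign, was 0.68 over the 10 genes and 0.82 over all tested genes. All 10 genes reached 20 CPM in at least 1 library. Over the 8472 genes that did so, the median size was 0.72, close to that of the 10 genes, and 37.5% differed at least 2-fold. All 10 genes passed the filter of 1 CPM, and each exceeded 14 CPM in both libraries, so the filter selected none of them. With sign, the median log2 change was 0.18 for the 10 genes and −0.06 for all tested genes.

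**Figure D1:**
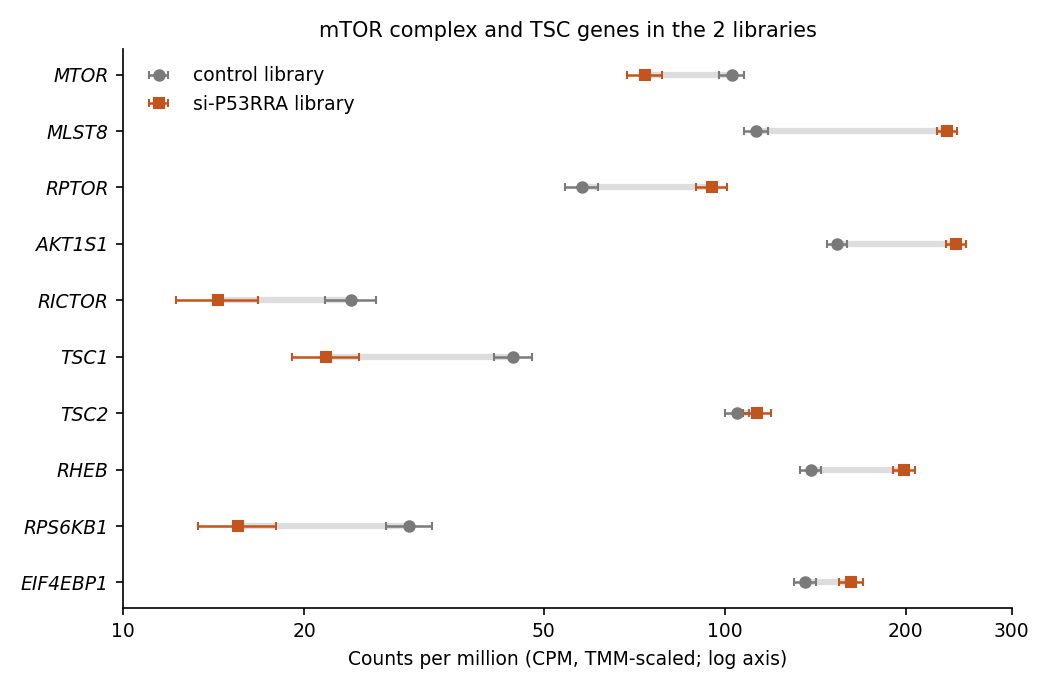
Level of each of the 10 genes in the control library (grey circles) and the siRNA library (orange squares), in CPM on a log axis, with exact Poisson 95% intervals for counting error (1 library per group). MTOR, RICTOR, TSC1 and RPS6KB1 were lower in the siRNA library, the other 6 genes were higher, and the 2 values of TSC2 nearly coincide.

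MTOR, the kinase shared by both complexes, had 1724 counts in control and 840 counts after siRNA. That is 103 CPM against 73.6 CPM, 1.40-fold lower (1.28 to 1.52), with a log2 change of −0.48. Among all tested genes 35.8% were as low or lower. Its partner in both complexes, MLST8, a small scaffold protein of WD40 repeats, went the other way. MLST8 had 1893 and 2670 counts, or 113 CPM and 234 CPM, and was 2.07-fold higher (1.96 to 2.202). Its log2 change of 1.05 was the largest increase of the 10 genes as reported, and 18.7% of tested genes were as high or higher. It was no longer 2-fold with total-count scaling (0.92) or with a correction for the GC content and length of transcripts (0.45), under which RPTOR (0.57) had the largest increase.

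The genes that set the identity of each complex were on opposite sides as reported, but not after the composition correction (for the GC content and length of transcripts, described further on), which turned RICTOR to 0.05 and left RPTOR at 0.57 on the log2 scale. RPTOR, whose product recruits substrates to complex 1, had 970 and 1085 counts, or 57.8 CPM and 95.1 CPM, and was 1.65-fold higher (1.51 to 1.80). RICTOR, the scaffold of complex 2, had 401 and 164 counts, or 23.9 CPM and 14.4 CPM, and was 1.66-fold lower (1.38 to 2.01). Both lay within 2-fold by their point values. The ratio of RPTOR counts to RICTOR counts within a library, which does not depend on how libraries are scaled, was 2.42 and 6.62, 2.73 times as large (2.23 to 3.37). With the correction that factor was 1.43.

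AKT1S1, whose product PRAS40 restrains complex 1 until it is phosphorylated, had 2578 and 2766 counts. Its level was 154 CPM and 242 CPM, 1.58-fold higher (1.495 to 1.67). The ratio of AKT1S1 to RPTOR, both specific to complex 1, was nearly the same in both libraries, at 2.66 and 2.55 (0.959 times as large, 0.865 to 1.06). MLST8 relative to MTOR, in contrast, was 1.10 and 3.18, or 2.89 times as large (2.61 to 3.21), and RPTOR relative to MTOR was 2.30 times as large (2.03 to 2.59). After the same correction the last pair of factors were 1.84 and 1.99. The gene pairs for these ratios were picked with the changes of their members known.

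TSC1, which encodes hamartin and stabilizes its partner TSC2, had the largest decrease of the 10 genes. It had 746 and 248 counts, or 44.5 CPM and 21.7 CPM, and was 2.05-fold lower (1.77 to 2.37), so the counting interval reaches below 2-fold. Of all tested genes, 22.9% were as low or lower. TSC2, which encodes tuberin, the part of the complex that acts on RHEB, was nearly level: it had 1758 and 1291 counts, or 105 CPM and 113 CPM, a ratio of 1.08 (1.00 to 1.16). The direction of that TSC2 value reversed with total-count scaling, to a log2 change of −0.02, and with the composition correction described further on, to −0.06. The ratio of TSC2 to TSC1 counts was 2.36 and 5.21, 2.21 times as large in the siRNA library (1.88 to 2.60), and 1.78 times as large after that correction.

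RHEB, the GTPase that activates complex 1, had 2333 and 2264 counts. Its level was 139 CPM and 198 CPM, 1.43-fold higher (1.35 to 1.51). RHEB was therefore higher while TSC1, a gene of its inhibitor, was lower, and the ratio of RHEB to TSC1 counts was 3.13 and 9.13, which is 2.92 times as large (2.495 to 3.42). It was 2.41 times as large after the correction. Relative to TSC2, RHEB was 1.32 times as large (1.204 to 1.45).

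The members that act downstream in translation also split. RPS6KB1, which encodes the S6 kinase that complex 1 activates, had 502 and 177 counts, or 29.9 CPM and 15.5 CPM, and was 1.93-fold lower (1.62 to 2.30). It stood just inside the 2-fold line, with a log2 change of −0.93, and passed it with total-count scaling, at −1.05. EIF4EBP1, whose product 4E-BP1 blocks the cap-binding factor eIF4E until mTOR phosphorylates it, had 2282 and 1853 counts. Its level was 136 CPM and 162 CPM, 1.19-fold higher (1.12 to 1.27), with a log2 change of 0.26, which the composition correction turned to −0.69. The paralog of the kinase gene, RPS6KB2, was level at 94.5 CPM and 90.3 CPM (1.05-fold lower, 0.967 to 1.13). The ratio of RPS6KB2 to RPS6KB1 was 1.84 times as large in the siRNA library (1.52 to 2.24), or 1.18 times after the correction.

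Across all genes the log2 change varied with the composition and length of the transcript, and the members followed this in part. The 4 genes that were lower, MTOR, RICTOR, TSC1 and RPS6KB1, have long transcripts of 5479 to 9543 bases in GENCODE 29, with GC contents of 36.5% for RICTOR, 38.2% for RPS6KB1, 48.5% for TSC1 and 52.2% for MTOR. Of the 6 that were higher, RPTOR, MLST8, AKT1S1, TSC2 and EIF4EBP1 lie between 59.8% and 65.5%, and RHEB, at 48.0%, has a transcript of 2075 bases. Across 12807 tested genes with a reference transcript, the median log2 change was −0.58 in the 20% of genes lowest in GC content and 0.40 in the 20% that were highest. By length it was 0.27 in the shortest 20% and −0.36 in the longest 20%. RPTOR and TSC2, with transcripts of 6408 and 6344 bases, belong to both the longest and the most GC-rich 20%, and were higher although the longest 20% had a median below 0. MTOR and TSC1 were lower although the medians of their GC groups were 0.16 and 0.02, and RHEB was higher at a GC content close to that of TSC1.

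**Figure D2:**
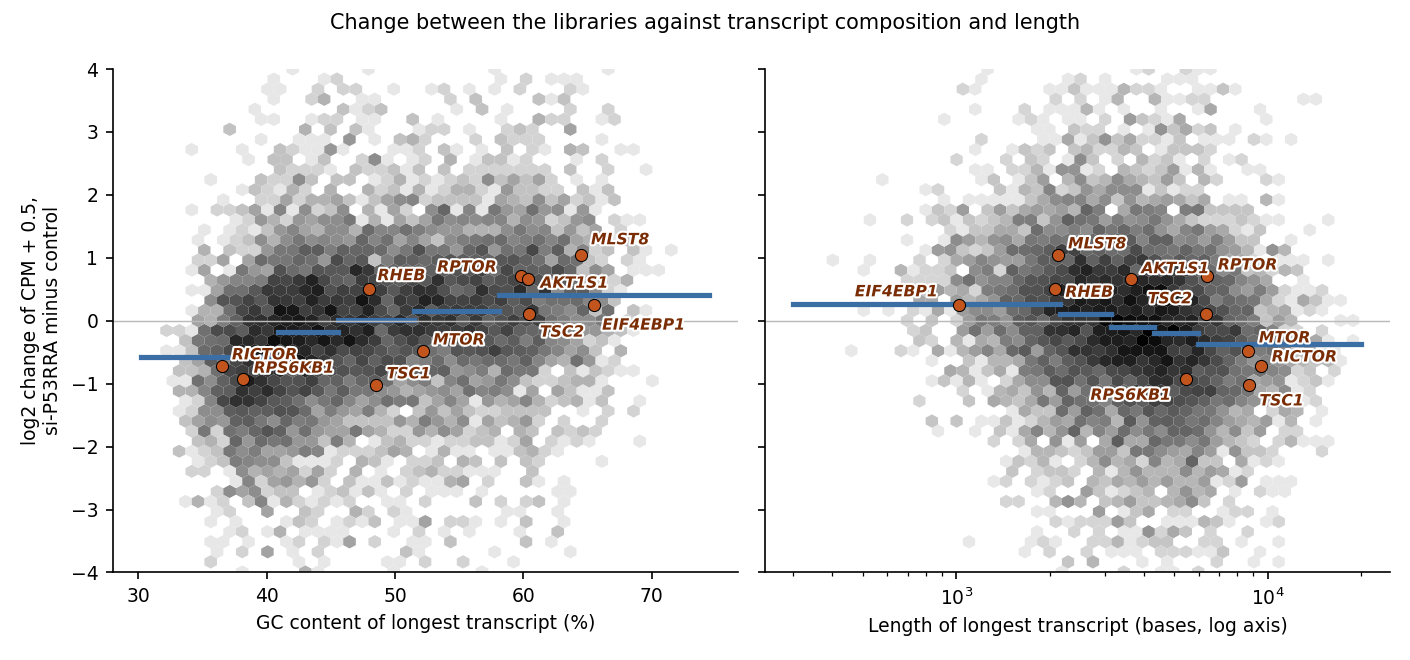
Log2 change between the libraries against GC content (left, percent) and length (right, bases, log axis) of each gene's longest transcript. Grey shading is the number of tested genes on a log scale, within the plotted range. Blue bars are medians of successive groups of 20% of the tested genes with a reference transcript, and orange points are the 10 genes. RICTOR (−0.71) and RPS6KB1 (−0.93) lie below the median of the 20% lowest in GC content (−0.58). TSC1 at −1.02 also lies below the median of its own GC group (0.02).

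A smooth surface in GC content and length, fitted over those 12807 genes, was subtracted to see what the members keep. None of the 10 genes was then 2-fold apart, against 18.2% of genes higher and 21.3% lower by the same rule. TSC1 kept most of its decrease, with a log2 change of −0.90, and MTOR kept −0.43. RPTOR, AKT1S1 and RHEB stayed above 0, at 0.57, 0.42 and 0.38. MLST8 moved from 1.05 to 0.45 and RPS6KB1 from −0.93 to −0.41. The decrease of RICTOR was not kept: its log2 change moved from −0.71 to 0.05. What sets the trend with GC content and length was not tested.

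**Figure D3:**
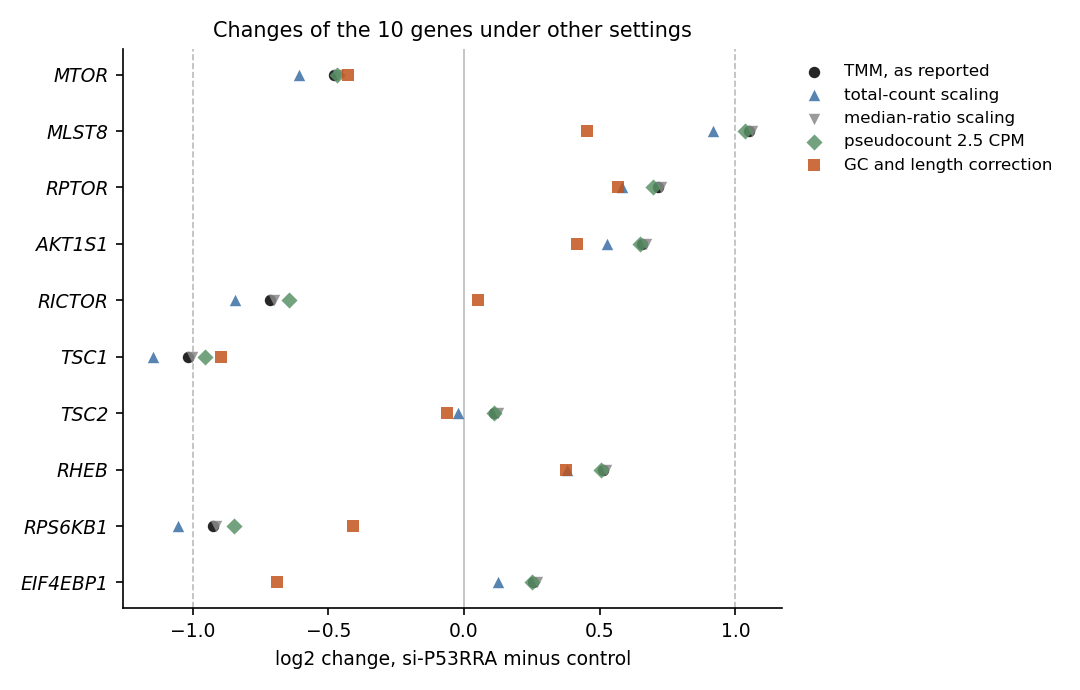
Log2 change of each of the 10 genes as reported (black circles), with total-count scaling (triangles up), median-ratio scaling (triangles down), a pseudocount of 2.5 CPM (diamonds) and the composition correction (orange squares); dashed lines mark 2-fold. RICTOR, TSC2 and EIF4EBP1 change sign under the correction, while TSC1 stays between −1.15 and −0.90.

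Per kilobase of the longest transcript, levels of the 10 genes ran from 133 CPM for EIF4EBP1 down to 2.504 CPM for RICTOR in the control library. The order between them was RHEB (67.0 CPM per kilobase), MLST8 (53.3), AKT1S1 (42.2), TSC2 (16.5), MTOR (11.8), RPTOR (9.02), RPS6KB1 (5.46) and TSC1 (5.10). Only RPS6KB1 and TSC1 were neighbours whose counting intervals overlapped. In the siRNA library EIF4EBP1 was again the most abundant (159 CPM per kilobase) and RICTOR the least (1.51). Neighbours changed places there in a pair of cases: MLST8 (111) stood above RHEB (95.6), and RPTOR (14.8) stood above MTOR (8.49). Neither change of place held per kilobase of coding sequence, where RHEB stood above MLST8 and RPTOR above MTOR in both libraries (with overlapping intervals for RPTOR and MTOR in control). RPS6KB1 (2.83) and TSC1 (2.49) again overlapped. Per kilobase of coding sequence, RICTOR remained last and EIF4EBP1 first in both libraries, but AKT1S1 stood above MLST8, and RPS6KB1 in the control library (19.0) was level with TSC2 (19.3).

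Of the other subunits of the complexes, DEPTOR and PRR5L were past 2-fold in opposite directions. DEPTOR, an inhibitor found in both complexes, had 64 and 161 counts, or 3.81 CPM and 14.1 CPM, and was 3.70-fold higher (2.75 to 5.02). MAPKAP1, which encodes the SIN1 subunit of complex 2, was level at 182 CPM and 183 CPM (a ratio of 1.00, 0.950 to 1.06). Of the pair of PROTOR genes of complex 2, PRR5L had 186 and 27 counts and was 4.68-fold lower (3.12 to 7.30). PRR5 had 173 and 105 counts, with an interval that includes no difference (1.12-fold lower, 0.874 to 1.44). Of the 7 listed subunits and assembly factors, DEPTOR was the 1 higher by 2-fold or more and PRR5L the 1 lower. That is 14.3% in each direction, beside 19.7% and 23.2% of all tested genes. The median log2 change was 0.01. TBC1D7, the other subunit of the TSC complex, had 15.9 CPM and 20.4 CPM, 1.28-fold higher (1.07 to 1.54). RHEBL1, the paralog of RHEB, had 60 and 51 counts (1.25-fold higher, 0.844 to 1.85).

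**Figure D4:**
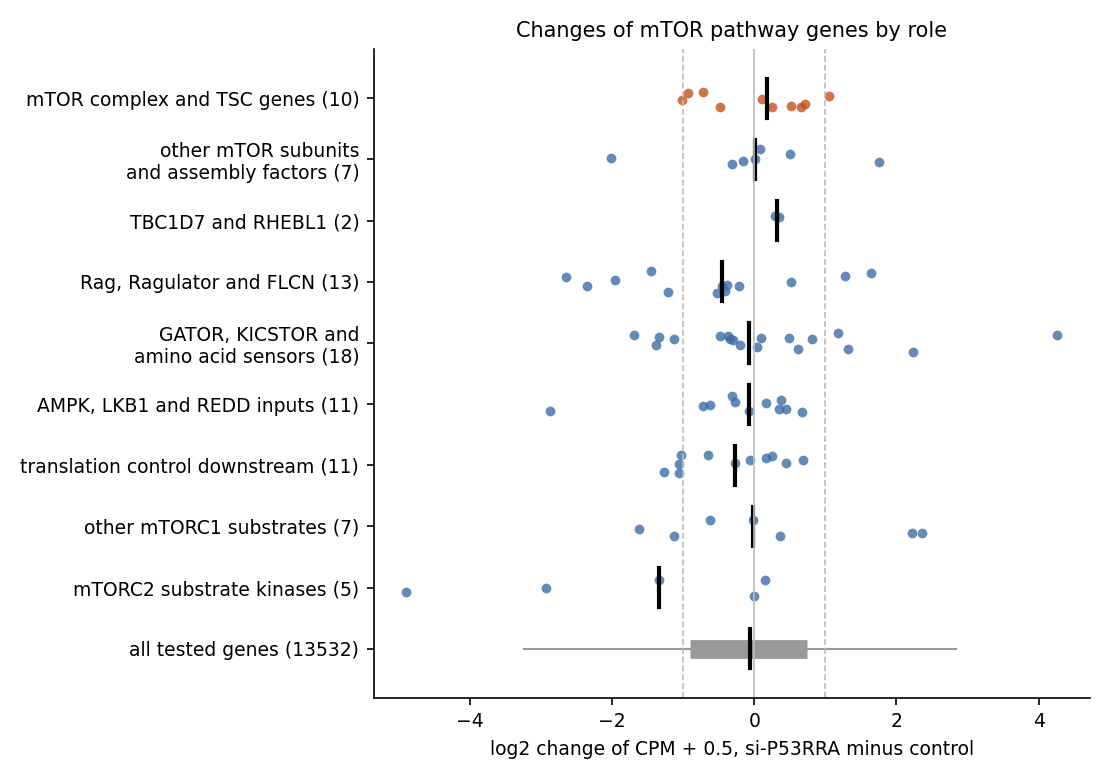
Log2 change of every tested gene of the mTOR pathway, grouped by role, with the number of tested genes in parentheses; black bars are medians, dashed lines mark 2-fold, and the grey bar spans the middle 50% of all tested genes with a line from the 5th to the 95th percentile. The 10 mTOR complex and TSC genes (orange) lie between −1.02 and 1.05, the 13 Rag and Ragulator genes between −2.65 and 1.65, and the 18 GATOR and sensor genes between −1.69 and 4.26.

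Upstream of complex 1, the log2 changes of the 13 Rag, Ragulator and folliculin genes ran from −2.65 to 1.65. The Rag GTPases dock complex 1 at the lysosome, the Ragulator complex anchors them there, and folliculin with its FNIP partners acts on RagC and RagD. Past 2-fold, 2 of the 13 genes in this group (15.4%) were higher and 5 (38.5%) were lower, beside 19.7% and 23.2% of all tested genes. Their median log2 change was −0.46. FNIP1 had 717 and 73 counts and was 6.68-fold lower (5.24 to 8.62). RRAGD had 117 and 11 counts, a 7.23-fold decrease (3.90 to 14.9). The Ragulator gene LAMTOR3 had 411 and 68 counts and was 4.11-fold lower (3.17 to 5.39). RRAGC and FLCN (named after their values were seen) make up the 5, at log2 changes of −1.45 and −1.21. The 2 that were higher, also named afterwards, were the Ragulator genes LAMTOR2 and LAMTOR5, at 1.65 and 1.28. Under the composition correction the counts of this group were again 2 and 5, beside 18.2% and 21.3% of the genes it covered.

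Among 18 genes of GATOR1, GATOR2, KICSTOR and the cytosolic amino acid sensors, 4 (22.2%) passed 2-fold upward and 4 (22.2%) downward. These shares are close to the 19.7% and 23.2% of all tested genes, so nothing particular to the list is read from them. The median log2 change was −0.08. Under the composition correction, which covered 15 of the 18 genes, 3 were higher and 2 lower, beside 18.2% and 21.3% of all corrected genes. The leucine sensor family split: SESN3 had 18 and 338 counts and was 27.6-fold higher (17.2 to 47.2), whereas SESN2, named after its value was seen, had a log2 change of −1.34. The arginine sensor gene CASTOR1 and its paralog CASTOR2 also split. CASTOR1 had 20 and 85 counts and was 6.25-fold higher (3.81 to 10.7), and CASTOR2 had 773 and 159 counts and was 3.31-fold lower (2.78 to 3.95). CASTOR2 has near-identical copies nearby in the genome, so its count is uncertain. The remaining genes past 2-fold were chosen after seeing their values. By log2 change, the GATOR1 gene NPRL2 (1.18) and the GATOR2 gene WDR59 (1.32) were higher. The KICSTOR gene ITFG2 (−1.13) and BMT2 (−1.38), which encodes the S-adenosylmethionine sensor SAMTOR, were lower.

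Among the energy and stress inputs, 10 of 11 genes were within 2-fold, beside 57.1% of all tested genes. With 11 genes nothing particular to the list is read from this count. AMPK, activated by LKB1 when energy is low, phosphorylates TSC2 and RAPTOR, and the REDD proteins act through the TSC complex. Under the composition correction 1 of the 11 was higher and 1 lower by 2-fold, beside 18.2% and 21.3% of all corrected genes. As reported, none was at least 2-fold higher and 1 was lower, beside 19.7% and 23.2% of all tested genes. The lower gene was DDIT4L, the gene of REDD2, with 53 and 0 counts. It was 12.01-fold lower when 3 counts were put in place of the 0. The counting interval of the 0 reached 3.69 counts (0.323 CPM), so 12.01 is not a lower limit of the decrease. DDIT4, the gene of REDD1, named after its value was seen, was level at 47.4 CPM and 44.9 CPM. The median log2 change of the group was −0.08.

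In the translation machinery downstream, 11 of 13 listed genes were measured, of which 4 (36.4%) were lower by 2-fold or more and none higher, beside 23.2% and 19.7% of all tested genes. Under the composition correction 1 was lower, EIF4G3 at −1.12, while EIF4E (−0.49), PDCD4 (−0.68) and LARP1 (−0.98) were within 2-fold. The median log2 change was −0.27. EIF4E, the cap-binding target of 4E-BP1, had 65.1 CPM and 31.0 CPM and was 2.10-fold lower (1.86 to 2.37). EIF4EBP2, the paralog of EIF4EBP1, was higher, with 153 CPM and 246 CPM (1.61-fold, 1.52 to 1.69). The ratio of EIF4EBP1 to EIF4E counts was thus 2.09 and 5.23, 2.51 times as large (2.19 to 2.88). The composition correction made that factor 0.872, so its direction reversed. EIF4G3, a scaffold of the cap-binding complex, was 2.42-fold lower (2.20 to 2.67), and PDCD4, an inhibitor of eIF4A that the S6 kinases mark for degradation, was 2.10-fold lower (1.82 to 2.42). LARP1, a repressor of mRNAs with a terminal oligopyrimidine tract, named after its value was seen, was the other gene that was lower, at a log2 change of −1.03. EIF4EBP3 had 15 and 2 counts and did not reach 1 CPM.

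Other substrates of complex 1 differed in both directions, with 2 of 7 genes higher (28.6%), 2 lower (28.6%) and a median log2 change of −0.02. Under the composition correction 2 were higher and 3 lower. Of all tested genes, 19.7% were higher and 23.2% lower by 2-fold, and 18.2% and 21.3% under the correction. With 7 genes nothing particular to the list is read from these counts. MAF1, a repressor of RNA polymerase III that mTOR phosphorylates, had 4002 and 13941 counts and was 5.12-fold higher (4.95 to 5.31). GRB10, an adaptor that restrains insulin receptor signalling, had 436 and 1404 counts and was 4.74-fold higher (4.25 to 5.29). TFE3, a transcription factor of lysosome genes that complex 1 holds in the cytoplasm, had 2424 and 533 counts and was 3.09-fold lower (2.81 to 3.40). LPIN1, named after its value was seen, had a log2 change of −1.13. Of the AGC family kinases that complex 2 phosphorylates, 5 of 7 were measured. By 2-fold or more 3 (60%) were lower and none higher, beside the same shares of all tested genes, and the median was −1.33. Under the composition correction the counts were again 3 and 0. With 5 measured genes nothing particular to this list is read from them. SGK1 had 1371 and 118 counts, a 7.90-fold decrease (6.54 to 9.62), and PRKCA was 2.53-fold lower (2.32 to 2.77). AKT1 and AKT2, outside the rule for named genes, had log2 changes of 0.15 and 0.00.

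Over all 78 other pathway genes, 74 were measured, with 9 higher and 20 lower by 2-fold or more, beside 19.7% and 23.2% of all tested genes. The shares among the measured pathway genes were 12.2% and 27.0%. Under the composition correction, which covered 71 of them, 9 were higher and 16 lower, beside 18.2% and 21.3% of all corrected genes. The genes of the pathway nearest to MTOR, by distance in log2(CPM + 0.5) over the 2 libraries and among 87 candidates, were RRAGA (0.25), RPS6KB2 (0.32) and ATG13 (0.38). With 2 libraries this distance measures only closeness of the 2 levels, and a small distance need not mean a similar change. The log2 change was −0.46 for RRAGA, near that of MTOR (−0.48), but −0.07 for RPS6KB2 and −0.02 for ATG13.

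Some of these counts could hold reads of other genes. The sources used here do not say whether counting used the strand. In GENCODE 29 the exons of TSC2 overlap those of PKD1 on the opposite strand by 778 bases and those of NTHL1 by 402 bases. PKD1 was lower, with 3486 and 1084 counts, and NTHL1 was higher, with 291 and 743 counts. RICTOR shares 229 exonic bases with OSMR on the opposite strand, which had 2496 and 266 counts and was lower, as RICTOR was. AKT1S1 shares 392 bases with TBC1D17, and MLST8 shares 164 bases with BRICD5, which had 21 and 19 counts. EIF4A1, normally abundant as the helicase of translation initiation, was listed with 9 and 3 counts beside 200 and 224 for the readthrough gene SENP3-EIF4A1, so its count is uncertain and no change is given for it. How the reads of this pair were assigned was not tested. SGK3, with 1 and 2 counts, likewise overlaps the readthrough gene C8orf44-SGK3.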

How the data were processed

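The authors deposited 2 columns of whole-number counts per gene symbol, whose differing totals show raw counts. Reads were mapped to hg19, per the submitters' processing notes. For the aligner, counting program, annotation and filters, nothing is given in the sources used here. Poly(A) RNA was fragmented and copied from random hexamers, per the labels' protocols. Of the columns, si-P53RRA matched a sample title, and the negative-control column was taken as the control group.

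From these counts, CPM were computed with library sizes scaled by the trimmed mean of M-values (TMM) in edgeR 4.0.16 under R 4.3.3. The log2 change was log2(CPM + 0.5) in si-P53RRA minus control, over the 13532 genes that reached 1 CPM in a library. Folds printed with intervals are CPM ratios without pseudocount. Levels have exact Poisson intervals, CPM ratios exact conditional binomial intervals and ratios between genes exact conditional odds ratio intervals (scipy 1.17.1), all at 95%. They cover counting error only, since each group holds 1 library. Reads lacking molecular identifiers need not be separate molecules, so the intervals may be too narrow even for counting error. Transcript length and GC content came from the longest GENCODE 29 transcript, available for 94.6% of tested genes. The composition correction subtracted a third-degree surface fitted on GC content and log length, and kept the mean. The build of that reference differs from hg19, so gene coordinates are not given and promoter windows are on GRCh38.p14. Of the other pathway genes, 4 were found under older symbols. Rows named like calendar dates (25, with 0.227% and 0.161% of counts) stayed in the totals.

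The 10 genes and the lists were chosen with earlier results of these data known. Named genes were the 10 members, 9 subunits or paralogs of them, in each list up to 3 genes past 2-fold with the largest changes, or else the 2 largest, and the 3 nearest to MTOR. Genes that met these rules but are withheld are not reported here by name, and list counts and medians include them. Other settings were scaling by total counts, by upper quartile or by median ratio (DESeq2 1.42.0), other filters, pseudocounts of 0.1 and 2.5 CPM, other fold sizes, a counting interval that excludes 1, the composition correction, and coding length. The scaling, the log2 change and the intervals of CPM ratios were tested on simulated counts with far fewer changed genes than here. Those counts had no added trend with GC content or length. The composition correction and the ratios between genes were not run on them.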

Additional observations from a re-analysis of the deposited data

How the results depend on the processing

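With total-count scaling, 0 of the 10 genes were at least 2-fold higher and 2 lower (TSC1 and RPS6KB1). Of all tested genes 2343 were then higher and 3463 lower, against 2667 and 3135 with TMM. The median log2 change of the 10 genes was 0.052. The median of all tested genes moved from −0.06 to −0.18, and the members stood 0.24 above it with TMM and 0.23 with total counts. With a pseudocount of 2.5 CPM, 1 member was higher and 0 lower, beside 2119 and 2387 of all tested genes. After the composition correction, 0 members were higher and 0 lower, beside 2335 and 2727 of the corrected genes. The median of the members was −0.0048 against 0.18 as reported. At a size of 1.5-fold, 3 members were higher and 3 lower, against 29.2% and 32.7% of all genes. At 3-fold, 0 members were higher and 0 lower, while 1587 and 1964 of all tested genes were. The other filters and scalings, a pseudocount of 0.1 CPM and the requirement that the counting interval exclude 1 left the counts of the members at 1 and 1. All 10 genes kept their direction under 6 of 8 settings. With total counts 9 did, TSC2 being the exception at −0.02. Under the correction 7 did, and RICTOR, TSC2 and EIF4EBP1 did not. The cause of these moves was not tested. RICTOR ranged from −0.84 to 0.05 and EIF4EBP1 from −0.69 to 0.27. No paired analysis was possible because each group holds 1 library. Depth gave each member at least 164 counts in each library, but the spread between replicates is unknown.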
